A study of Homo sapiens with 14 samples.

Results

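The genes described here are 48 genes of mitosis and the G2/M stage of the cell cycle, taken by name from the 23040 genes listed for every library. They were chosen with earlier results of these data known. All 48 were found and all 48 passed the filter on low values that 13427 genes passed. Total RNA was sequenced from Panc-1 and AsPC-1 cells, established lines of human pancreatic cancer. In each line serum-starved cells received ANG (angiogenin or hRNase5, at 1 µg/ml), a ribonuclease found outside cells and called an EGFR ligand in the title of the series, or epidermal growth factor (EGF, 50 ng/ml), the classical EGFR ligand, for 1, 5 or 24 h. A mock library of untreated cells completes each line; the time at which it was taken and whether its cells were starved are not given in the labels. There are thus 7 conditions per line, 14 libraries in all, with 1 library per condition, and the 2 ligands differ in dose. The labels were taken as given: no targeted gene checks the time or treatment of a library, and with 1 library per condition a condition and its library cannot be told apart.

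Mitosis is driven by CDK1 bound to cyclins A and B, held back by WEE1, released by CDC25 phosphatases, and ended when the anaphase promoting complex marks securin and the cyclins for destruction. The transcripts of this machinery are made mostly in late S, G2 and M. They are repressed in resting cells by the DREAM complex and activated by MYBL2 and FOXM1 together with the same MuvB core. This core acts through a promoter element named CHR, and a second element of such promoters is named CCAAT. In a bulk sample, fewer cells in G2 and M and less of each RNA per cell cannot be told apart.

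Levels are RPKM, reads per kilobase of gene model and per fixed number of mapped reads, so they are relative to the reads of each library and can be set side by side between genes. By estimate, genes under 400 bp held 5.06% to 16.4% of the reads in Panc-1 libraries (6.16% in mock). In AsPC-1 libraries they held 5.25% to 17.1% (5.98% in mock). Depth, estimated from the smallest step between values, ran from 11.2 to 16.9 M reads for Panc-1 libraries and from 18.9 to 24.0 M for AsPC-1 libraries, and 1 read in 2 kb is worth at most 0.0445 RPKM. Between 11192 and 12266 genes reached 1 RPKM per library. The epithelial keratin transcripts KRT8, KRT18 and KRT19 were high in all libraries (250.2 to 892 RPKM). The adhesion gene EPCAM ranged from 4.88 to 5.58 RPKM among Panc-1 libraries and from 149 to 230.1 among those of AsPC-1. Among Panc-1 libraries the keratin KRT7 (2.82 to 4.16 RPKM) and the cadherin CDH1 (5.86 to 13.45) were low too. Summed blood cell markers (5 genes) lay between 0.26 and 2.44 RPKM, nearly all of it CD14, and summed endothelial markers (4 genes) at or below 0.14. The 5 fibroblast markers summed to 1.13 to 1.53 RPKM in the first line and to 26.7 to 46.7 in AsPC-1, where LUM gave nearly all and the collagens COL1A1 and COL1A2 were at or near 0. In AsPC-1 the epithelial cadherin CDH1 was higher in the 1 h and 5 h libraries (66.6 to 89.3 RPKM) than in mock and at 24 h (21.3 to 23.4). Of the 20 markers, KRT7 (10.0 to 15.7 against 4.55 to 6.32) and CD14 (1.55 to 2.44 against 0.91 to 1.18) split the same way there, and LUM was lower early (26.5 to 30.7 against 33.0 to 46.3). In Panc-1 the early libraries were lower in KRT8 (250.2 to 294 against 297 to 401), KRT18 (313 to 350 against 395 to 523), KRT19 (317 to 370 against 424 to 433) and PDGFRB (0.09 to 0.18 against 0.20 to 0.37). The part of these markers in the results below was not tested.

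The 48 genes moved in opposite directions in the 2 lines, each time with the early libraries (1 h and 5 h) away from mock and from 24 h. In Panc-1 each of the 48 genes was higher in all 4 libraries of 1 h and 5 h than in mock and in both 24 h libraries; of all genes tested, 20.9% did the same. In AsPC-1 each of the 48 was lower in all 4 early libraries than in mock and at 24 h, against 31.5% of the genes tested. With the ANG and EGF libraries averaged as a geometric mean, the median gene in Panc-1 was 3.09-fold above mock at 1 h, 2.84-fold above at 5 h and 1.01-fold at 24 h. In AsPC-1 the median gene was 8.23-fold below mock at 1 h, 13.7-fold below at 5 h and 1.27-fold below at 24 h. The heat map of changes against mock shows the same block pattern in every role.

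**Figure D1:**
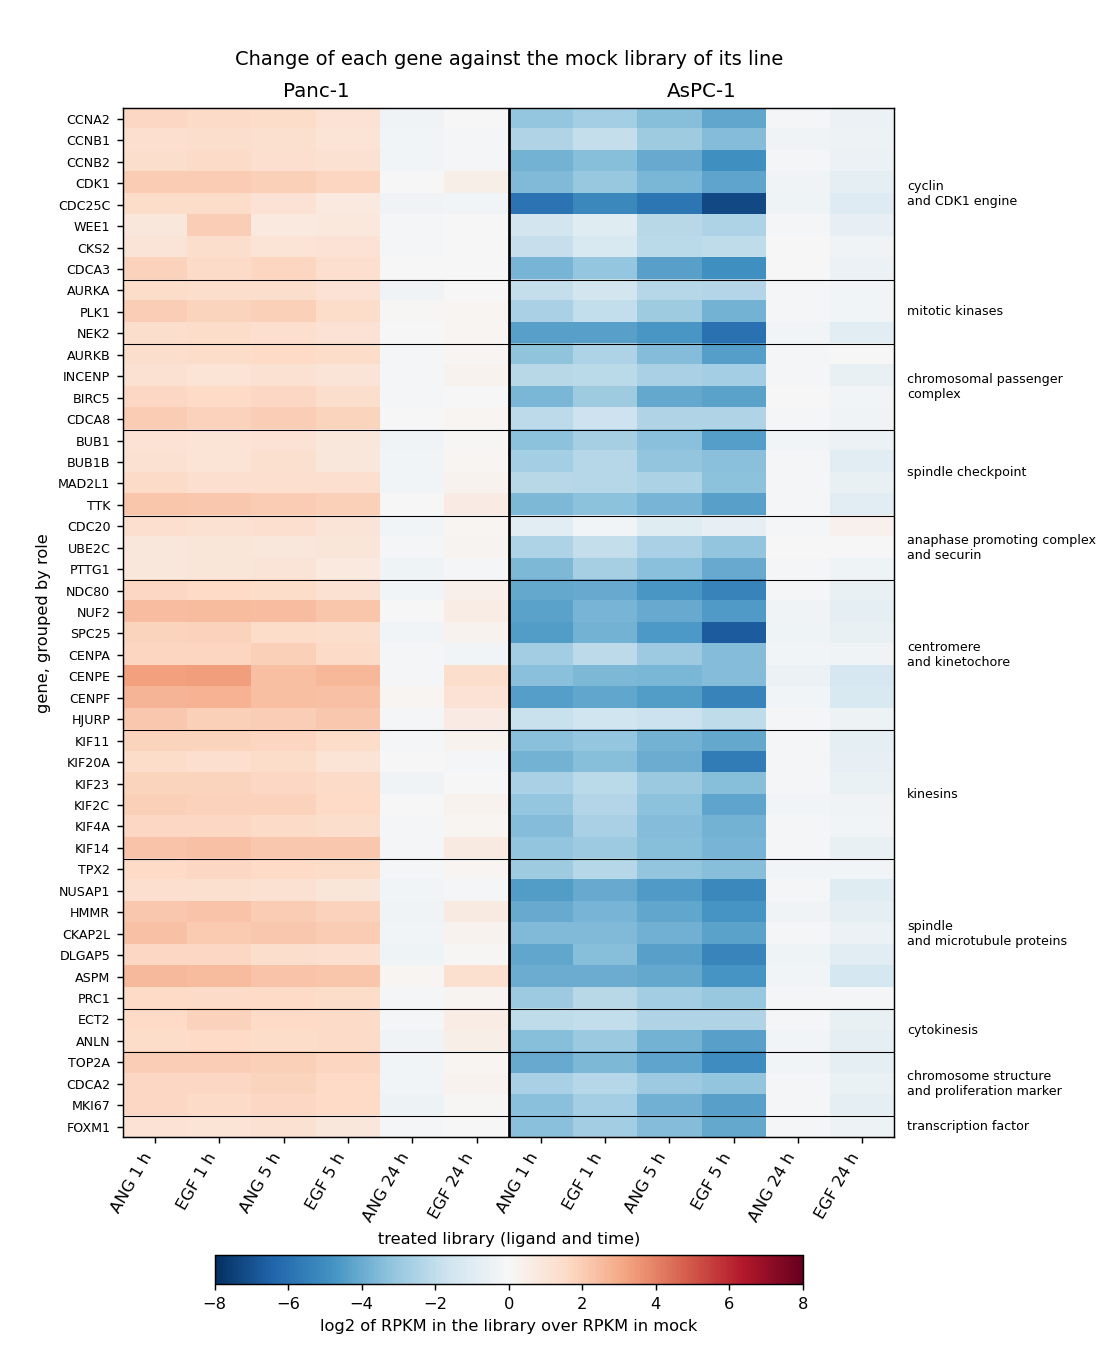
Change of the 48 genes (rows, grouped by role) in the 12 treated libraries (columns), each as log2 of its RPKM over that of the mock library of its line, red above and blue below mock. The 1 h and 5 h columns are red throughout in Panc-1 and blue throughout in AsPC-1, and the 24 h columns are pale in both. The colour range is set by the largest change (CDC25C, 149.9-fold below mock in AsPC-1 with EGF at 5 h), so the reds of Panc-1 are light too.

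The counts of genes at least 2-fold away from mock say the same library by library. In Panc-1, 45 of 48 genes were at least 2-fold higher with ANG at 1 h (5.12% of the genes tested), 46 with ANG at 5 h (5.46%), 46 with EGF at 1 h (4.95%) and 40 with EGF at 5 h (5.35%). At 24 h none was with ANG, where 4.09% of the genes tested were 2-fold apart either way, and 3 were with EGF (2.54%): CENPE, CENPF and ASPM, picked out after their values were seen. In AsPC-1, 47 genes were at least 2-fold lower with ANG at 1 h (17.4%), 47 with ANG at 5 h (19.3%), 46 with EGF at 1 h (19.5%) and 47 with EGF at 5 h (21.6%). At 24 h none was with ANG (3.31% either way), and 4 were lower with EGF (8.3%): CDC25C, CENPE, CENPF and ASPM. CENPE, CENPF and ASPM were thus 2-fold high with EGF at 24 h in Panc-1 and 2-fold low in AsPC-1, the direction of the early change of each line. The AsPC-1 count of 4 of 48 is near the share of all genes tested (8.3%), and each value is of 1 library.

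Since these genes moved together, their promoters were searched for the 2 elements named above. RefSeq's promoter table (GRCh38.p14, 250 bases before to 50 after each start) held 47 promoters for 40 of the 48 genes. The CHR letters TTTGAA, read on both strands, were in 34 of the 47 (72.3%), in 15.2% of all 35116 promoters of the table and in 10.43% of the 13006 promoters of genes tested. The letters CCAAT were in 38 of 47 (80.9%) and in 34.6% of all promoters; both motifs were in 61.7% and in 5.90%. A TTTGAA match and a CCAAT match share a base in the promoters of CDCA8 and MKI67. The stretch from 130 bases before to 20 after the start is printed for 4 genes: the cyclin and kinase genes CCNB2, CDK1 and PLK1, as genes of the G2/M engine that hold both motifs, and CDC20, because its change in AsPC-1 was the smallest of the 48. No TTTGAA was in the promoters of CCNB1, CCNA2, AURKB, BUB1, CENPE, KIF20A, KIF2C, NEK2 and PTTG1. The 4 printed stretches are on the + strand, and capitals mark TTTGAA and CCAAT or, on the opposite strand, TTCAAA and ATTGG.
CCNB2, chr15:59105016-59105165: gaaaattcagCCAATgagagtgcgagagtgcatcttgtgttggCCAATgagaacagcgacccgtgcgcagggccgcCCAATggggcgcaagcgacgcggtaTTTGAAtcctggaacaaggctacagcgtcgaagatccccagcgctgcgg
CDK1, chr10:60778348-60778497: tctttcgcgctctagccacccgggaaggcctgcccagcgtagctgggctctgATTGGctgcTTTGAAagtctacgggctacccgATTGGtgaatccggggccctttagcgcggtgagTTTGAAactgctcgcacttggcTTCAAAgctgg
PLK1, chr16:23678759-23678908: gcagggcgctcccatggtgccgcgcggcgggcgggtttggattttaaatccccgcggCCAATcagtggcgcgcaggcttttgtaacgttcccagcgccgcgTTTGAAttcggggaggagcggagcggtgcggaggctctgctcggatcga
CDC20, chr1:43358851-43359000: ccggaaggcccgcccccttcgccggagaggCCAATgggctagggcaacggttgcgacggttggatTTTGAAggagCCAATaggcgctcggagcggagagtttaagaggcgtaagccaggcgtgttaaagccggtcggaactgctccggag
In CCNB2 and in PLK1 the TTTGAA match begins 29 bases before the start, with 3 CCAAT matches upstream of it in CCNB2 and 1 in PLK1. In CDK1 a TTTGAA match begins 13 bases before the listed start and another 69 before it, and in CDC20 the match in this stretch begins 65 before it. The 31 genes with a TTTGAA match and the 9 without one could not differ in direction, since all 48 genes moved the same way within a line. At 5 h their medians were 2.95-fold and 2.39-fold above mock in Panc-1, and 15.6-fold and 13.7-fold below mock in AsPC-1. A match describes letters in these windows and shows no binding.

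Of the 8 genes of the cyclin and CDK1 engine, all 8 rose at 1 h and 7 at 5 h in Panc-1, and all 8 fell at both times in AsPC-1, by limma with an adjusted p under 0.05. Of all genes tested, 6.72% rose at 1 h and 5.92% at 5 h in Panc-1, and 29.2% and 31.4% fell in AsPC-1; the counts of the other roles are to be read against the same shares. CDK1, the kinase that starts mitosis (hg19 chr10:62538089-62554610, + strand), was at 13.0 RPKM in Panc-1 mock, at 52.0, 47.7 and 12.7 RPKM after 1, 5 and 24 h of ANG, and at 53.9, 41.9 and 18.2 after EGF. CDK1 in AsPC-1 stood at 72.5 RPKM in mock, at 6.29, 5.83 and 60.3 after ANG, and at 8.86, 3.91 and 41.5 after EGF. The early libraries are the high ones in Panc-1 and the low ones in AsPC-1, with no overlap with mock or 24 h. CCNB1, cyclin B1 (hg19 chr5:68462913-68474070, + strand), was at 57.8 RPKM in Panc-1 mock, at 145, 139 and 49.2 with ANG, and at 151, 122 and 52.7 with EGF. In AsPC-1 its level was 125 RPKM in mock, 23.2, 17.3 and 102 with ANG, and 34.0, 11.1 and 92.2 with EGF. CCNB1 had the highest level of the 48 genes in AsPC-1 with ANG at 1 h and 5 h and with EGF at 1 h and 24 h.

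CDC25C, the phosphatase that activates CDK1, had the largest fold change of the 48 in AsPC-1 and one of the smaller ones in Panc-1 at 5 h; it was singled out after its values were seen. In AsPC-1 it was at 18.0 RPKM in mock, at 0.30, 0.33 and 14.1 with ANG, and at 0.50, 0.12 and 8.71 with EGF. That is 46.5-fold below mock at 1 h and 90.4-fold below at 5 h, where the level is that of few reads. In Panc-1 it was 2.76-fold above mock at 1 h and 1.95-fold at 5 h. WEE1, the kinase that inhibits CDK1 (hg19 chr11:9595228-9611313, + strand), differed from the other 7. In Panc-1 it was at 20.9 RPKM in mock, at 38.5, 36.2 and 19.0 with ANG, and at 80.2, 37.3 and 20.7 with EGF, so that the EGF 1 h library alone was 2.08 times its ANG partner. In AsPC-1 it was at 12.5 RPKM in mock, at 4.59, 2.71 and 11.4 with ANG, and at 6.47, 2.22 and 7.98 with EGF. WEE1 rose at 1 h in Panc-1 (log2 fold change 1.37, SE 0.36, limma adjusted p = 0.0347), and its value at 5 h was 0.79 (SE 0.36, adjusted p = 0.160). The other members were CCNA2 and CCNB2, cyclins A2 and B2, CKS2, a small CDK-binding subunit, and CDCA3, a G2/M gene; at 5 h they were 2.18-fold (CKS2) to 2.83-fold (CDCA3) above mock in Panc-1 and 4.20-fold (CKS2) to 24.9-fold (CDCA3) below mock in AsPC-1.

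The 3 mitotic kinases rose at 1 h and 5 h in Panc-1 and fell at both times in AsPC-1. PLK1, which drives mitotic entry and centrosome maturation (hg19 chr16:23690201-23701688, + strand), was at 22.8 RPKM in Panc-1 mock, at 89.8, 86.6 and 24.0 with ANG, and at 79.3, 62.0 and 25.0 with EGF. PLK1 in AsPC-1 stood at 80.1 RPKM in mock, at 13.2, 11.2 and 73.4 with ANG, and at 20.8, 5.75 and 68.4 with EGF. Both lines had PLK1 at 24 h close to their own mock, so the order of the lines at 24 h was that of mock. AURKA, the spindle pole kinase Aurora A (hg19 chr20:54944445-54967351, - strand), was at 18.3 RPKM in Panc-1 mock, at 50.0, 49.0 and 15.0 with ANG, and at 47.7, 40.0 and 17.7 with EGF. In AsPC-1 it was at 34.9 RPKM in mock, at 9.49, 7.23 and 32.5 with ANG, and at 12.4, 6.998 and 30.5 with EGF. NEK2, a centrosome kinase, had the largest change of the 3 in AsPC-1: from 24.4 RPKM in mock to 1.22, 0.98 and 21.4 with ANG and to 1.18, 0.39 and 13.1 with EGF. In Panc-1 NEK2 went from 7.69 RPKM in mock to 20.6, 19.6 and 7.42 with ANG and to 21.1, 17.1 and 8.46 with EGF.

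**Figure D2:**
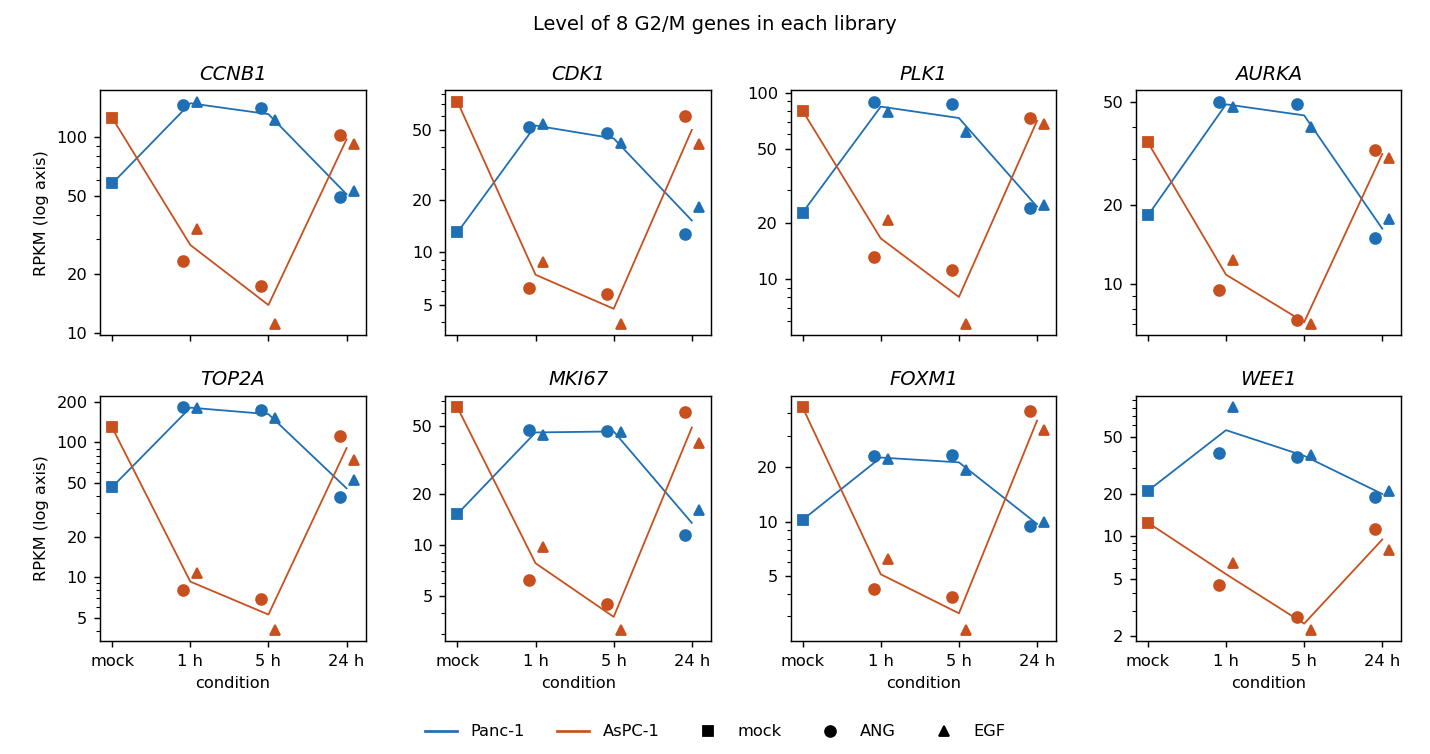
RPKM (log axis, a separate range in each panel) of 8 G2/M genes by condition in Panc-1 (blue) and AsPC-1 (orange), with 1 symbol per library (square mock, circle ANG, triangle EGF) and lines through the geometric mean of the 2 ligands. In each panel the Panc-1 line is highest at 1 h or 5 h and the AsPC-1 line lowest at 5 h, and the triangle of WEE1 at 1 h in Panc-1 (80.2 RPKM) stands above its circle (38.5).

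The chromosomal passenger complex, which corrects faulty attachments of chromosomes to the spindle, moved as a whole. All 4 of its genes, the kinase AURKB and its partners INCENP, BIRC5 (survivin) and CDCA8 (borealin), rose at 1 h and 5 h in Panc-1 and fell at both times in AsPC-1. BIRC5 was at 28.5 RPKM in Panc-1 mock, at 89.0, 90.1 and 26.2 with ANG, and at 86.3, 76.3 and 29.7 with EGF. BIRC5 in AsPC-1 stood at 41.4 RPKM in mock, at 3.24, 2.47 and 41.8 with ANG, and at 5.76, 2.16 and 35.5 with EGF. INCENP, the scaffold, had the smallest change of the 4 averaged over the lines. It went from 10.8 RPKM in Panc-1 mock to 24.8, 24.9 and 10.1 with ANG and 23.2, 21.7 and 13.0 with EGF. In AsPC-1 INCENP was at 36.9 RPKM in mock, at 7.83, 6.10 and 33.0 with ANG, and at 8.41, 5.498 and 24.9 with EGF. At 5 h AURKB was 2.84-fold above mock in Panc-1 and 15.4-fold below in AsPC-1, and CDCA8 was 3.64-fold above and 5.29-fold below.

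The spindle checkpoint delays anaphase until all chromosomes are attached. Of its 4 genes, all rose at 1 h in Panc-1 and 3 at 5 h; all 4 fell at both times in AsPC-1. TTK, the kinase MPS1 at the top of the checkpoint, changed most: it was at 8.97 RPKM in Panc-1 mock, at 42.4, 37.0 and 9.14 with ANG, and at 40.3, 34.2 and 14.3 with EGF. In AsPC-1 TTK was at 27.8 RPKM in mock, at 2.31, 2.14 and 25.4 with ANG, and at 2.84, 1.36 and 15.7 with EGF. BUB1B, which holds back the anaphase promoting complex, went from 12.7 RPKM in Panc-1 mock to 29.9, 30.4 and 10.9 with ANG and to 27.0, 23.4 and 14.2 with EGF. The AsPC-1 values of BUB1B were 28.98 RPKM in mock, 4.42, 3.29 and 27.2 with ANG, and 5.94, 2.81 and 16.3 with EGF. MAD2L1, the checkpoint protein MAD2, was 2.54-fold above mock at 5 h in Panc-1 and 7.49-fold below in AsPC-1. The kinase BUB1 was 2.03-fold above mock at 5 h in Panc-1, a difference that did not pass the test (log2 fold change 1.00, SE 0.32, adjusted p = 0.0629), and 14.7-fold below in AsPC-1.

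The genes around the anaphase promoting complex changed least. The group median was 1.92-fold above mock at 5 h in Panc-1 and 7.36-fold below in AsPC-1. CDC20, the activator of the complex, had the smallest decrease of all 48 in AsPC-1: it was at 21.5 RPKM in mock, at 11.6, 10.9 and 19.2 with ANG, and at 18.2, 13.9 and 27.8 with EGF. It was 1.47-fold below mock at 1 h (log2 fold change -0.53, SE 0.25, adjusted p = 0.125) and fell at 5 h by 1.74-fold (log2 fold change -0.75, SE 0.25, adjusted p = 0.0378). In Panc-1 CDC20 rose as the others did, from 16.5 RPKM in mock to 42.2, 41.2 and 14.4 with ANG and 37.7, 34.3 and 18.1 with EGF. PTTG1, securin, was at 67.0 RPKM in Panc-1 mock, at 127, 136 and 53.1 with ANG, and at 132, 114 and 59.0 with EGF, and passed the test at neither early time in that line (adjusted p = 0.0882 and 0.0980). In AsPC-1 PTTG1 fell, from 78.3 RPKM in mock to 6.52, 7.74 and 73.2 with ANG and 12.3, 4.81 and 60.8 with EGF. UBE2C, the ubiquitin-conjugating enzyme of the complex, was 1.92-fold above mock at 5 h in Panc-1 and 7.36-fold below in AsPC-1, and passed the test in both lines at both times.

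The 7 centromere and kinetochore genes had the largest median change in Panc-1. They rose at 1 h and 5 h in Panc-1 and fell at both times in AsPC-1, with medians of 4.21-fold above mock at 5 h in Panc-1 and 19.2-fold below in AsPC-1. CENPF, a large protein that coats the outer kinetochore in G2 and M, was at 13.9 RPKM in Panc-1 mock, at 90.1, 74.1 and 15.4 with ANG, and at 94.0, 70.9 and 30.4 with EGF. CENPF in AsPC-1 stood at 50.1 RPKM in mock, at 2.40, 2.22 and 42.3 with ANG, and at 2.87, 1.21 and 21.4 with EGF. CENPE, the kinetochore motor that moves chromosomes to the spindle equator, had the largest increase in Panc-1: from 1.48 RPKM in mock to 14.5, 7.91 and 1.35 with ANG and to 15.3, 9.50 and 3.98 with EGF, 10.0-fold above mock at 1 h and 5.86-fold at 5 h. HJURP, the chaperone that loads the centromeric histone CENPA, paired one of the larger increases in Panc-1 with the second smallest decrease in AsPC-1 at 5 h. In Panc-1 HJURP was at 17.4 RPKM in mock, at 77.8, 69.3 and 16.4 with ANG, and at 66.6, 77.6 and 27.0 with EGF. In AsPC-1 it was at 51.6 RPKM in mock, at 14.8, 15.5 and 46.3 with ANG, and at 16.9, 12.8 and 39.4 with EGF. The 3 subunits of the NDC80 complex, which grips microtubules, were 2.54-fold (NDC80), 5.06-fold (NUF2) and 2.69-fold (SPC25) above mock at 5 h in Panc-1, and 31.5-fold, 19.2-fold and 49.7-fold below in AsPC-1. For CENPA the values were 3.28-fold above and 9.03-fold below.

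The 6 kinesins, motors of the spindle and the midzone, rose and fell as one block: each passed the test at 1 h and 5 h in both lines. KIF11, the motor that pushes spindle poles apart, was at 11.1 RPKM in Panc-1 mock, at 38.3, 37.2 and 10.3 with ANG, and at 37.3, 30.1 and 13.4 with EGF. In AsPC-1 KIF11 was at 38.3 RPKM in mock, at 3.83, 2.74 and 34.1 with ANG, and at 4.42, 2.20 and 22.4 with EGF. KIF23, the motor of the central spindle, went from 22.5 RPKM in Panc-1 mock to 75.9, 70.4 and 18.8 with ANG and to 77.2, 66.1 and 22.9 with EGF. The AsPC-1 values of KIF23 were 31.5 RPKM in mock, 5.30, 3.99 and 28.4 with ANG, and 6.91, 3.0 and 21.3 with EGF. At 5 h the kinesins lay between 2.39-fold (KIF20A) and 4.45-fold (KIF14) above mock in Panc-1. In AsPC-1 they lay between 9.09-fold (KIF23) and 27.3-fold (KIF20A) below; KIF2C, a microtubule depolymerase, and KIF4A, a chromosome-bound motor, were within these ranges. KIF4A has a near-identical retrocopy, KIF4B, and PTTG1 has PTTG2, so reads of these genes may be split or shared in the counting.

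All 7 spindle and microtubule genes rose at 1 h and 5 h in Panc-1 and fell at both times in AsPC-1. TPX2, which activates Aurora A on microtubules, had the highest level of the 48 in every Panc-1 library, from 67.4 RPKM with ANG at 24 h to 225.5 with EGF at 1 h. HMMR, a spindle-bound protein also known as RHAMM, was at 8.57 RPKM in Panc-1 mock, at 38.1, 35.0 and 6.90 with ANG, and at 41.3, 30.3 and 14.1 with EGF. In AsPC-1 HMMR was at 57.0 RPKM in mock, at 3.47, 3.14 and 47.8 with ANG, and at 4.36, 2.12 and 33.6 with EGF. PRC1, the antiparallel microtubule bundler of the midzone, went from 36.1 RPKM in Panc-1 mock to 108, 110 and 34.5 with ANG and to 103, 97.9 and 41.5 with EGF. Its AsPC-1 values were 45.3 RPKM in mock, 6.16, 6.66 and 42.2 with ANG, and 9.79, 5.51 and 40.4 with EGF. ASPM, a spindle pole protein, was at 3.95 RPKM in Panc-1 mock and rose 4.76-fold at 5 h; NUSAP1, which binds microtubules near chromosomes, had the smallest increase of the 7 at 2.14-fold and the largest decrease in AsPC-1 at 28.7-fold. CKAP2L and DLGAP5, both spindle-bound, were 4.27-fold and 2.64-fold above mock at 5 h in Panc-1 and 16.5-fold and 27.9-fold below in AsPC-1.

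The 2 cytokinesis genes rose and fell with the rest. ANLN, the anillin scaffold of the cleavage furrow, was at 47.3 RPKM in Panc-1 mock, at 133, 130.1 and 39.6 with ANG, and at 145, 135 and 65.7 with EGF. ANLN in AsPC-1 stood at 139 RPKM in mock, the highest of the 48 genes there, at 13.2, 9.92 and 122 with ANG, and at 17.4, 6.94 and 84.0 with EGF. ECT2, the exchange factor that starts furrowing, was at 19.96 RPKM in Panc-1 mock, at 60.7, 59.3 and 18.9 with ANG, and at 70.9, 58.4 and 30.2 with EGF. In AsPC-1 ECT2 was at 49.8 RPKM in mock, at 11.98, 9.50 and 46.5 with ANG, and at 12.5, 9.39 and 33.4 with EGF.

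TOP2A, MKI67 and CDCA2, which act on chromosome structure, rose at 1 h and 5 h in Panc-1 and fell at both times in AsPC-1. TOP2A, the topoisomerase that untangles sister chromatids (hg19 chr17:38544773-38574202, - strand), was at 46.7 RPKM in Panc-1 mock, at 182, 174 and 39.4 with ANG, and at 181, 152 and 53.0 with EGF. In AsPC-1 TOP2A was at 129 RPKM in mock, at 8.0, 6.85 and 112 with ANG, and at 10.8, 4.07 and 73.9 with EGF. MKI67, the proliferation marker Ki-67 (hg19 chr10:129894925-129924468, - strand), was at 15.2 RPKM in Panc-1 mock, at 47.5, 47.1 and 11.4 with ANG, and at 44.4, 46.0 and 16.0 with EGF. Its AsPC-1 values were 64.5 RPKM in mock, 6.27, 4.51 and 60.2 with ANG, and 9.76, 3.18 and 40.0 with EGF. CDCA2, which brings a phosphatase to chromosomes, was at 3.18 RPKM in Panc-1 mock, 10.2, 10.7 and 2.70 with ANG, and 10.2, 9.402 and 3.84 with EGF. In AsPC-1 CDCA2 was at 32.3 RPKM in mock, at 5.25, 4.38 and 28.9 with ANG, and at 6.54, 3.55 and 22.5 with EGF. FOXM1, the transcription factor of G2/M genes (hg19 chr12:2966849-2986303, - strand), changed in the same directions as the genes it is known to activate. It was at 10.3 RPKM in Panc-1 mock, at 23.1, 23.4 and 9.46 with ANG, and at 22.3, 19.5 and 10.0 with EGF. In AsPC-1 FOXM1 was at 42.9 RPKM in mock, at 4.23, 3.85 and 41.0 with ANG, and at 6.21, 2.53 and 32.2 with EGF.

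The comparisons with mock were tested with limma over all genes, on log2(RPKM + 1), with the ANG and EGF libraries of a line and time as its 2 repeats. The single mock library of each line was assumed to vary as the treated pairs do, and since no label says that libraries came from separate cultures, the p-values speak only of the spread among these libraries, which may be technical. In Panc-1, 47 of the 48 genes rose at 1 h (6.72% of the genes tested rose; median log2 fold change of the 48 1.55, all genes -0.06) and 45 at 5 h (5.92%; median 1.44, all genes -0.10). PTTG1 missed the threshold at 1 h, and PTTG1, BUB1 and WEE1 at 5 h. In AsPC-1, 47 fell at 1 h (29.2% of the genes tested fell; median -2.76, all genes -0.14) and all 48 at 5 h (31.4%; median -3.43, all genes -0.14), CDC20 being the one that missed the threshold at 1 h. At 5 h CDK1 rose by a log2 fold change of 1.71 (SE 0.30, adjusted p = 0.00852) in Panc-1 and was at -3.67 (SE 0.30, adjusted p = 8.65e-05) in AsPC-1. For PLK1 the values were 1.64 (SE 0.34, adjusted p = 0.0138) and -3.16 (SE 0.34, adjusted p = 0.000251), and for TOP2A 1.78 (SE 0.32, adjusted p = 0.00844) and -4.37 (SE 0.32, adjusted p = 5.86e-05), the largest decrease of the 48 on this scale. FOXM1 was at 0.99 (SE 0.24, adjusted p = 0.0247) and -3.41 (SE 0.24, adjusted p = 5.67e-05), and its call at 5 h in Panc-1 was lost with no filter on low values. The Panc-1 counts depended on single libraries. They were lower at 1 h without either 1 h library, and at 5 h without either 5 h library. Such a fit sets 1 treated library against 1 mock library, so no Panc-1 count is given for it. The directions of the genes called held in each of these fits.

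At 24 h none of the 48 differed from mock past the threshold by limma, in Panc-1 (0% of the genes tested in either direction; 0 of 48 at an unadjusted p under 0.05; median log2 fold change 0.02) or in AsPC-1 (0% likewise; 1 of 48 unadjusted, CDC25C; median -0.33). Without the AsPC-1 ANG 24 h library, CDC25C was at a log2 fold change of -0.93 there, in a fit that leaves 1 library at 24 h. From 5 h to 24 h, 47 genes fell in Panc-1 (11.7% of the genes tested fell; median -1.41), WEE1 being the exception (-0.86, SE 0.30, adjusted p = 0.0664), and all 48 rose in AsPC-1 (27.5% rose; median 3.05). The count in Panc-1 was lower without either Panc-1 5 h library and without the Panc-1 ANG 24 h library. Such a fit leaves 1 library at 5 h or at 24 h. Between 1 h and 5 h no gene of the 48 was called by limma in Panc-1 (0.00745% of the genes tested, 1 gene; 1 of 48 at an unadjusted p under 0.05, CDC25C) or in AsPC-1 (0% of the genes tested), although in AsPC-1 the fitted mean of the 2 ligands was lower at 5 h than at 1 h for all 48 (55.4% of the genes tested), 30 of them with an unadjusted p under 0.05 (6.6% of the genes tested, in either direction). By ligand, 42 were lower at 5 h with ANG, the others being CDC25C, PTTG1, NUF2, HJURP, KIF4A and PRC1, and 47 with EGF, the other being CENPE. The fitted difference was largest for CCNB1 (log2 fold change -0.97, SE 0.22, adjusted p = 0.550).

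**Figure D3:**
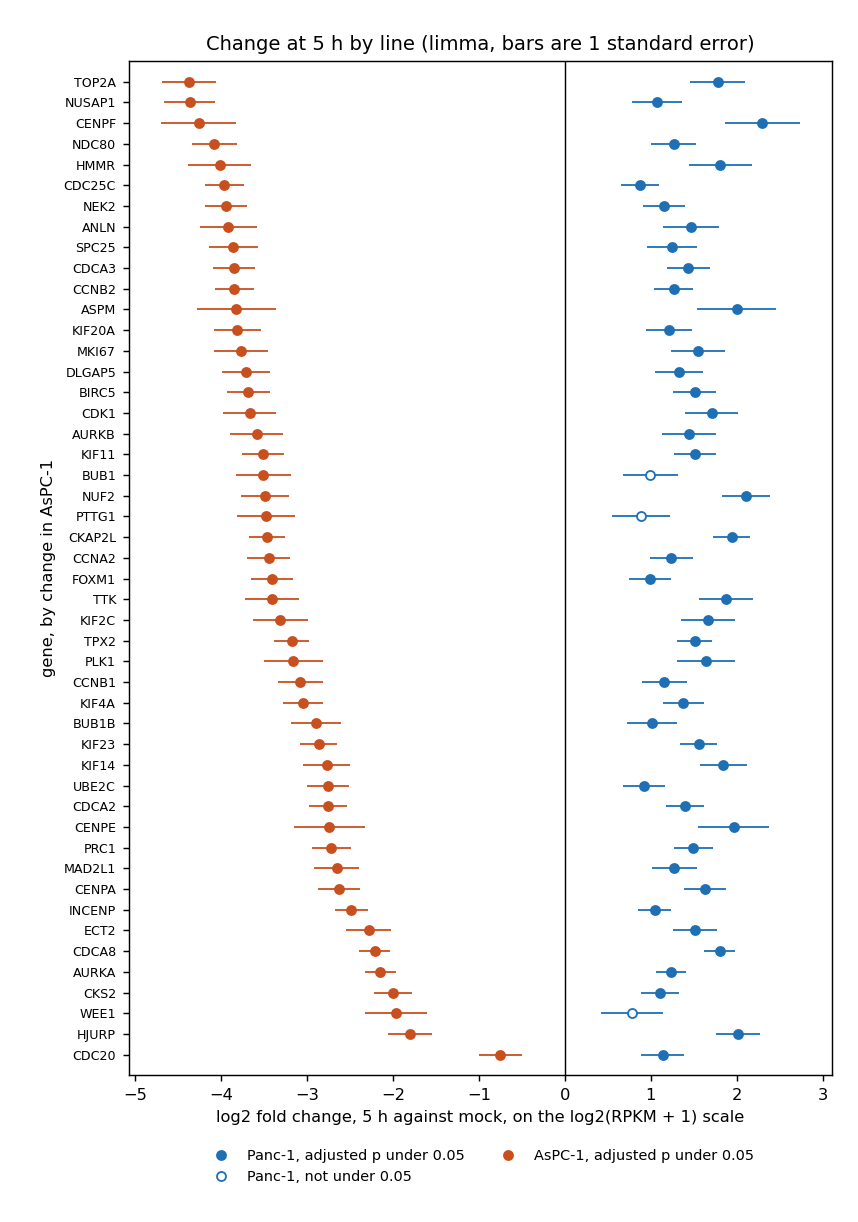
Log2 fold change of each of the 48 genes at 5 h against mock on the log2(RPKM + 1) scale, from limma, in Panc-1 (blue) and AsPC-1 (orange), with bars of 1 standard error and open circles for an adjusted p of 0.05 or more. All blue points lie right of 0 and all orange points left of it; BUB1, PTTG1 and WEE1 are open in Panc-1, and CDC20 has the smallest decrease in AsPC-1 (-0.75).

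The lines were also compared directly, as the difference of their changes. All 48 genes had a lower change at 1 h against mock in AsPC-1 than in Panc-1 (18.6% of the genes tested did; median difference -4.26 on the log2 scale), all 48 a lower change at 5 h (18.2%; median -4.75), and all 48 a higher change from 5 h to 24 h (20.9%; median 4.45). The smallest difference at 5 h was that of CDC20 (-1.89, SE 0.35, adjusted p = 0.00547) and the largest that of CENPF (-6.56, SE 0.62, adjusted p = 0.000220). These 3 counts were 48 under every alternative that gave a value. The level averaged over all 7 conditions was lower in AsPC-1 for 9 genes (39.6% of the genes tested were lower; median of the 48 -1.19): WEE1 (-2.26, SE 0.43, adjusted p = 0.00144), CCNB2, CKS2, BIRC5, PTTG1, CENPA, KIF23, TPX2 and PRC1. That count ranged from 1 to 20 with one library left out: it was 20 without either mock or either ANG 24 h library, and 1, WEE1, without any one of the 8 early libraries. The averaged level does not show that the lines crossed: the median of the 48 genes was 14.04 RPKM in Panc-1 mock and 37.6 in AsPC-1 mock, but after 5 h of EGF the Panc-1 library had a median of 35.8 and the AsPC-1 library one of 2.38.

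The order of the genes by size of change was weakly shared between the lines at 1 h and hardly at 5 h. Across the 48 genes the signed log2 changes of the 2 lines had a Pearson r of -0.32 at 1 h (Spearman -0.34) and of -0.08 at 5 h (Spearman -0.11), where a negative value means that larger increases in Panc-1 go with larger decreases in AsPC-1; the lines share no library, and genes of one module are not independent points. CDC25C, NEK2 and SPC25 had the 3 largest folds below mock at 5 h in AsPC-1 and lay between 1.95-fold and 2.69-fold above mock in Panc-1, below the median there. HJURP and CDCA8 were among the larger increases in Panc-1 (4.21-fold and 3.64-fold at 5 h) and among the smaller decreases in AsPC-1 (3.66-fold and 5.29-fold). CENPF was high in both orders, at 5.20-fold above mock in Panc-1 and 30.6-fold below in AsPC-1.

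**Figure D4:**
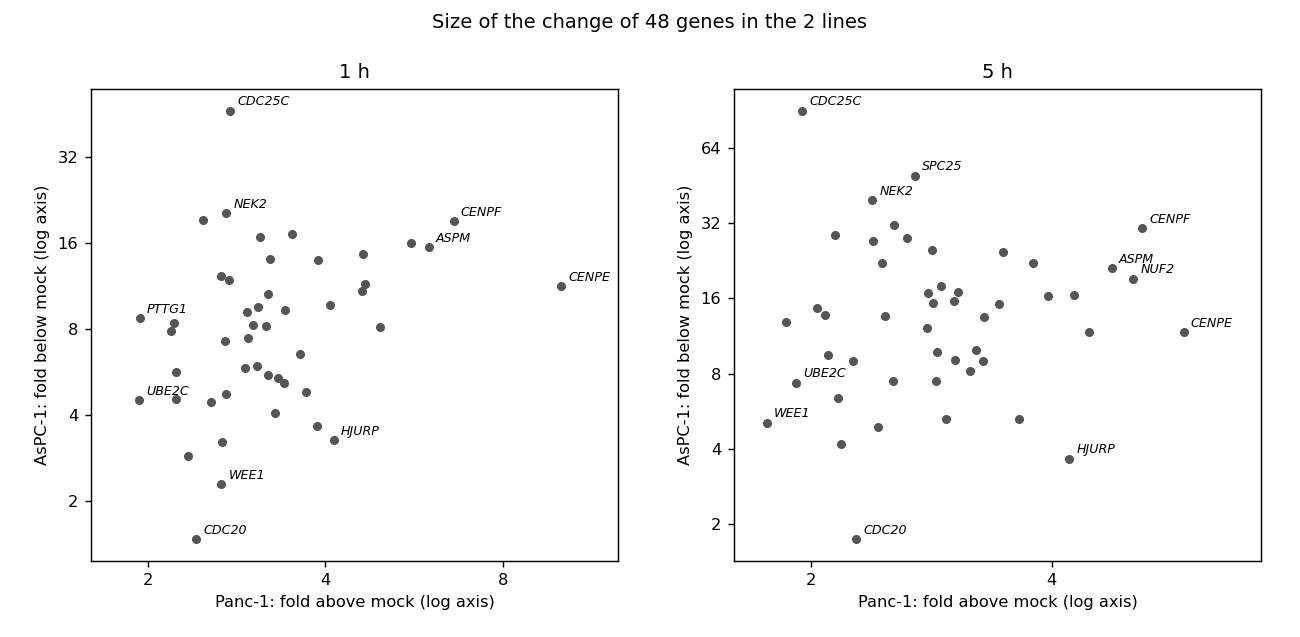
Fold above mock in Panc-1 (horizontal) against fold below mock in AsPC-1 (vertical) for the 48 genes at 1 h (left) and 5 h (right), each the geometric mean of the ANG and EGF libraries, on log axes. The points spread widely without a line: CDC25C is at the top left (90.4-fold below mock at 5 h in AsPC-1, 1.95-fold above in Panc-1), CDC20 at the bottom and CENPE at the right.

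With EGF and with ANG the early changes of all 48 genes had the same direction within a line. Over the 6 pairs of line and time, limma called none of the 48 genes (0.156% of the genes tested, 21 genes; 0 of 48 at an unadjusted p under 0.05), and the fitted differences lay between -0.28 (KIF20A) and 0.22 (CDC20) on the log2 scale. The smallest adjusted p was 0.320, which does not show that the ligands act alike. This fit averages the 6 pairs, so differences that lie on opposite sides in different pairs cancel in it. The difference between ligands was not called as differing between the lines (0% of the genes tested; 2 of 48 unadjusted, CDC20 and MAD2L1) or between 24 h and the earlier times (0%; 1 of 48 unadjusted, CKS2).

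Single pairs have no repeat and no test. In 5 of the 6 pairs most of the 48 genes had ratios of EGF to ANG on one shared side of 1, but that side changed between pairs. In Panc-1 the median ratio was 0.98 at 1 h, with 20 genes higher and 28 lower with EGF (56.0% and 42.6% of the genes tested). It was 0.88 at 5 h, where 42 of 48 genes were lower with EGF (59.8% of the genes tested were), and 1.26 at 24 h, where 46 were higher (54.7%). In AsPC-1 it was 1.35 at 1 h, with 43 higher (48.7%), 0.68 at 5 h, with 44 lower (41.9%), and 0.75 at 24 h, with 45 lower (63.1%). At 24 h the EGF libraries thus lay on the side of each line's early change: above ANG in Panc-1 and below it in AsPC-1. Only WEE1 was 2-fold higher with EGF at 1 h in Panc-1 (1.39% of the genes tested were). At 24 h in Panc-1 CENPE (2.95), ASPM (2.20) and HMMR (2.05) were (1.66%). In AsPC-1 SPC25 (0.23), KIF20A (0.33), CDC25C (0.36), NEK2 (0.40) and BUB1 (0.50) were at least 2-fold lower with EGF at 5 h (4.66%), and ASPM (0.45) at 24 h (7.42%). These genes were singled out after their values were seen. CDC20 was the one gene clearly higher with EGF at 24 h in AsPC-1, at 1.44 times its ANG level.

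The ratio at 24 h went with transcript length among the 48 genes, and with the size of their early change. Across them, log2 of EGF over ANG had a Pearson r with log2 length of the longest annotated coding transcript of 0.56 in Panc-1 (Spearman 0.52) and of -0.53 in AsPC-1 (Spearman -0.47), while over 10993 and 10812 of the genes tested r was 0.03 and -0.04. CENPE (8.61 kb), ASPM (10.9 kb) and CENPF (10.3 kb), among the 4 longest of the 48, were among the genes with the most extreme ratios, but MKI67, the longest at 12.7 kb, did not (1.41 in Panc-1). Across the 48 genes the 24 h ratios of the 2 lines had an r of -0.45, against 0.13 over 12764 genes tested. The log2 fold against mock in Panc-1 went with length about as strongly (r = 0.52 at 1 h and 0.50 at 5 h), and in AsPC-1 less (-0.19 and -0.12). The 24 h ratio went with the log2 fold at 5 h of its own line too (Pearson r = 0.71 for Panc-1, 0.55 for AsPC-1). Of the other pairs, EGF over ANG at 1 h in AsPC-1 also went with length (r = -0.48, against -0.10 over 10823 genes tested), toward lower ratios of the longer genes. The 48 points share libraries in each line, and these values are descriptions with no test.

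**Figure D5:**
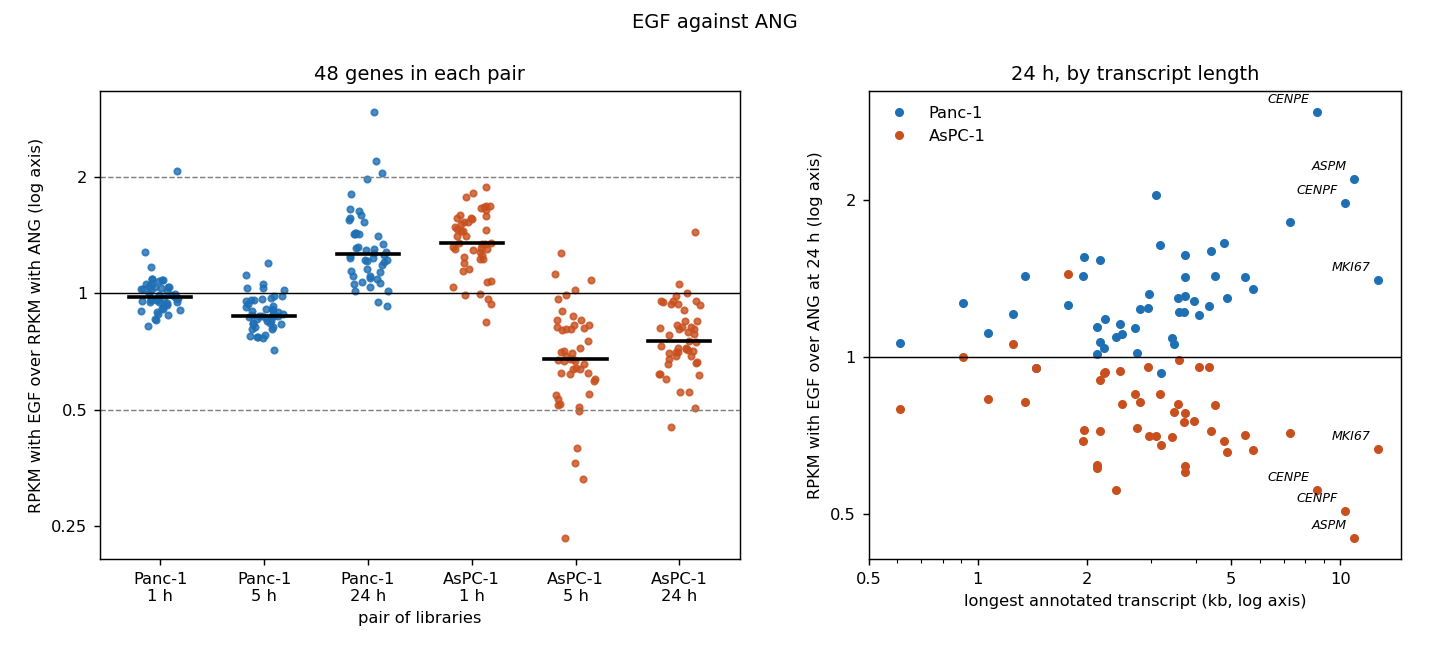
Left, RPKM with EGF over RPKM with ANG (log axis) of the 48 genes in the 6 pairs of libraries, with black bars at the medians and dashed lines at 2-fold. Right, the same ratio at 24 h against the length of the longest annotated coding transcript (kb, log axis) in Panc-1 (blue) and AsPC-1 (orange): the long genes CENPE, ASPM and CENPF are among the highest in Panc-1 and are the 3 lowest in AsPC-1.

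Most other mitotic genes measured moved in the same directions. Of 64 other mitotic genes measured (condensins, further kinesins and kinetochore genes, cohesin protectors and subunits of the anaphase promoting complex), 55 rose at 1 h and 54 at 5 h in Panc-1 (6.72% and 5.92% of the genes tested), and 62 and 61 fell in AsPC-1 (29.2% and 31.4%). Their medians at 5 h were 1.10 and -2.41 on the log2 scale, against 1.44 and -3.43 for the 48. SGOL2, a protector of centromeric cohesion (2.13, SE 0.41, adjusted p = 0.0108), and SMC4, a condensin subunit (1.97, SE 0.33, adjusted p = 0.00750), were highest at 5 h in Panc-1. CDC23, a constitutive subunit of the anaphase promoting complex, was the one gene that fell there (-0.39, SE 0.11, adjusted p = 0.0421), and the phosphatase CDC25B, next lowest, was at -0.21 (SE 0.20, adjusted p = 0.499). In AsPC-1 HMGB2, a chromatin protein (-4.61, SE 0.28), and NCAPG, a condensin subunit (-3.61, SE 0.25), were lowest at 5 h. CDC16 (0.19, adjusted p = 0.136) and CDC27 (-0.34, adjusted p = 0.0611), also subunits of that complex, did not pass the test there.

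The regulators of these promoters were less uniform. Of 18 genes of the MuvB, MYB and E2F group, 7 rose and 3 fell at 5 h in Panc-1, and 13 fell and 1 rose in AsPC-1; of the genes tested, 5.92% rose and 1874 of 13427 fell in Panc-1, and 31.4% fell and 1742 of 13427 rose in AsPC-1. The 3 that fell in Panc-1 are thus near the background share. MYBL2, the MYB protein that joins MuvB in S and G2 (1.58, SE 0.28, adjusted p = 0.00843 in Panc-1, and -3.26, SE 0.28, adjusted p = 9.93e-05 in AsPC-1), and E2F7, a repressor of the family (1.61, SE 0.24, in Panc-1), moved with the G2/M genes. RBL2, the p130 protein of the DREAM complex, fell in Panc-1 (-0.64, SE 0.18, adjusted p = 0.0387), as did TFDP2, a partner of E2F proteins (-0.63, SE 0.15, adjusted p = 0.0247). E2F4, the E2F of DREAM, rose in AsPC-1 (0.96, SE 0.10, adjusted p = 0.000202), and E2F8 fell (-2.96, SE 0.36).

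Genes of G1/S and DNA replication changed with the G2/M genes and by less. Of 37 such genes, 33 rose at 1 h and 31 at 5 h in Panc-1 (6.72% and 5.92% of the genes tested), with a median of 1.01 on the log2 scale at 5 h, and 34 and 36 fell in AsPC-1 (29.2% and 31.4%), with a median of -2.01. RRM2, a subunit of ribonucleotide reductase (1.97, SE 0.26, in Panc-1 and -3.52, SE 0.26, in AsPC-1), and CDC45, a helicase subunit (1.72, SE 0.24, in Panc-1), were at the top in Panc-1, and TYMS, thymidylate synthase (-3.72, SE 0.30), was lowest in AsPC-1. CCNE1, cyclin E1, passed the test in neither line (-0.20, adjusted p = 0.609 in Panc-1, and -0.56, adjusted p = 0.101 in AsPC-1).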

How the data were processed

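Each of the 14 libraries came as the authors' deposited table of log2 RPKM per gene, per the file headers; hg19 is the build in the submitters' processing notes, and for alignment, counting and strand no source used here gives a method. RPKM was taken as 2 to the deposited log2 value, with the floor of -8.966 read as 0. The 48 genes, their roles and the other gene lists were chosen with earlier results of these data known. Genes reaching 1 RPKM in 2 or more libraries were fitted on log2(RPKM + 1) with limma 3.58.1 in R 4.3.3 (moderated test with trend): one mean per line and time plus a ligand term (5 residual degrees of freedom), ligands compared within the 6 pairs, lines within conditions. P-values were adjusted by Benjamini-Hochberg over all genes tested, with a threshold of 0.05, and the fit was tested on simulated data. Fold changes on this scale understate those of low genes. Named with values in every library were 8 core genes and, per role, the genes with the largest and smallest change at 5 h averaged over the lines; of each other list, at most 2 from either end. Alternatives were another pseudocount, other filters, 2 rescalings, no ligand term, and each library left out.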

Additional observations from a re-analysis of the deposited data

Results flagged for a closer look

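The change against mock differed between the lines at 1 h for 48 of the 48 genes and at 5 h for 48, by limma's test of the difference between the lines. The change from 5 h to 24 h differed for 48 too. Of all genes tested, 18.6% were called lower in AsPC-1 and 11.9% higher at 1 h, and 18.2% and 13.6% at 5 h. From 5 h to 24 h, 15.6% were called lower and 20.9% higher. Mock and treated libraries are single libraries, so the line and its libraries cannot be told apart.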

How the results depend on the processing

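With another pseudocount, other filters, the rescalings or no ligand term, 43 to 47 of the 48 genes were called at 1 h and 39 to 46 at 5 h in Panc-1, 46 to 47 and 47 to 48 in AsPC-1. The difference between lines was called for all 48 in each of these and with any library left out that allowed the fit, and the ligand comparisons for 0. Leaving out 1 library each gave 31 to 48 genes at 1 h, 20 to 47 at 5 h and 28 to 48 from 5 h to 24 h in Panc-1, 0 to 1 at 24 h against mock in AsPC-1, and 1 to 20 in the comparison of the lines' levels, which was 5 with no filter on low values. The causes were not tested. Centring each library on its median moved the median log2 fold change of the 48 in AsPC-1 to -2.50 at 1 h and -3.14 at 5 h. It moved the median of all genes there from -0.14 at both times to 0.11 and 0.15, and the genes called higher from 1582 (with 3922 lower) to 3067 of 5633 at 1 h and from 1742 (with 4210 lower) to 3388 of 6155 at 5 h. No block on replicate numbers could be fitted, since each condition has 1 library; the pairs of line and time stand in the comparison of the ligands itself. Leaving out a mock library gives no comparison with it, and dropping the ligand term gives no ligand test.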
